A study of Apostichopus japonicus with 9 samples.

Results

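In the intestine of Apostichopus japonicus, a farmed sea cucumber, 100 transcripts stood higher in every library from diluted sea water than in every library from control or concentrated sea water. They were chosen by measured values. Estimated counts were divided by median-of-ratios size factors, which scale each library by its typical ratio to the others over the genes present in all 9, and the results are called scaled counts here. Of 27269 gene models with a line in at least 1 library, 12545 had a mean scaled count of 10 or more. In 348 of these (2.77%) the lowest library at low salinity lay above the highest of the 6 others. The groups at control and high salinity also had to have means within 2.5-fold of each other, which left 338 genes. The 100 with the largest separation ratio were taken, that is the lowest low-salinity scaled count + 1 over the highest other scaled count + 1. The separation itself is therefore a description of how the transcripts were chosen, and no test of it is given. With libraries scaled to their totals 1054 genes passed in place of 338. Without SD20 replicate 1, SD20 replicate 2 and SD40 replicate 1, 588, 699 and 720 genes passed. Every omission leaves fewer libraries to be separated, and the other omissions gave 376 to 480 genes.

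The low-salinity group is labelled SD20 (salinity 20), the control group SD30 (salinity 30) and the high-salinity group SD40 (salinity 40), with 3 libraries each, and no unit is given here because the labels do not use a single one. Animals of all groups had first been held at 15 °C in aerated sand-filtered water. Salinity was then moved by 2.5 every 6 h in SD20 and SD40, and 20 animals were assigned to each group. Each library is poly(A) RNA pooled from 3 animals, so variation between single animals is not seen, and no label states whether separate tanks supplied the pools. No source used here gives the age of the animals or how long they stayed at the final salinity. Because the gut was sequenced whole, more cells of a type and more RNA per cell cannot be told apart.

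Sea cucumbers are echinoderms that let their body fluid follow the sea water and do not hold its salt content tightly. In diluted water their cells take up water and swell, and cells of osmoconforming animals are known to recover their volume by releasing potassium, chloride and small organic solutes such as amino acids. The intestine is in contact with swallowed sea water and sediment and takes up ions as well as nutrients. Which of the 100 transcripts, if any, serve these processes cannot be said here. The files give identifiers (AJAP numbers) without gene names, RefSeq's table of this species' genes holds 0 of the 27269 identifiers, and no sequence is paired with them. The tissue label could not be checked against marker genes for the same reason.

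Library totals lay between 2834168 and 4060892 estimated counts. Size factors were 1.32 to 1.55 in SD20, against 0.537, 0.566 and 1.15 in SD30, and 0.850 to 1.34 in SD40. In SD30 replicates 1 and 2, with the small size factors, the 10 most abundant genes took 44.6% and 62.5% of counts, and in SD40 replicate 1, with a size factor of 1.34, they took 42.3%. In SD20 they took 29.6% to 31.4%. A given scaled count therefore rests on fewer reads in those 2 control libraries.

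The 100 transcripts took a small share of the intestinal RNA. Together they held 0.347%, 0.400% and 0.445% of the estimated counts in the SD20 libraries, against 0.0330%, 0.0436% and 0.138% in the SD30 libraries and 0.126%, 0.0982% and 0.0967% in the SD40 libraries. Their median scaled count was 49.5, 52.7 and 60.02 in the SD20 libraries, 9.78, 12.5 and 19.1 in the SD30 libraries, and 18.6, 12.6 and 14.1 in the SD40 libraries. SD30 replicate 3 and SD40 replicate 1 were thus nearest to low salinity, and SD30 replicate 1 was farthest. Over all 12545 genes the median scaled count lay between 30.8 and 35.7 in every library.

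**Figure D1:**
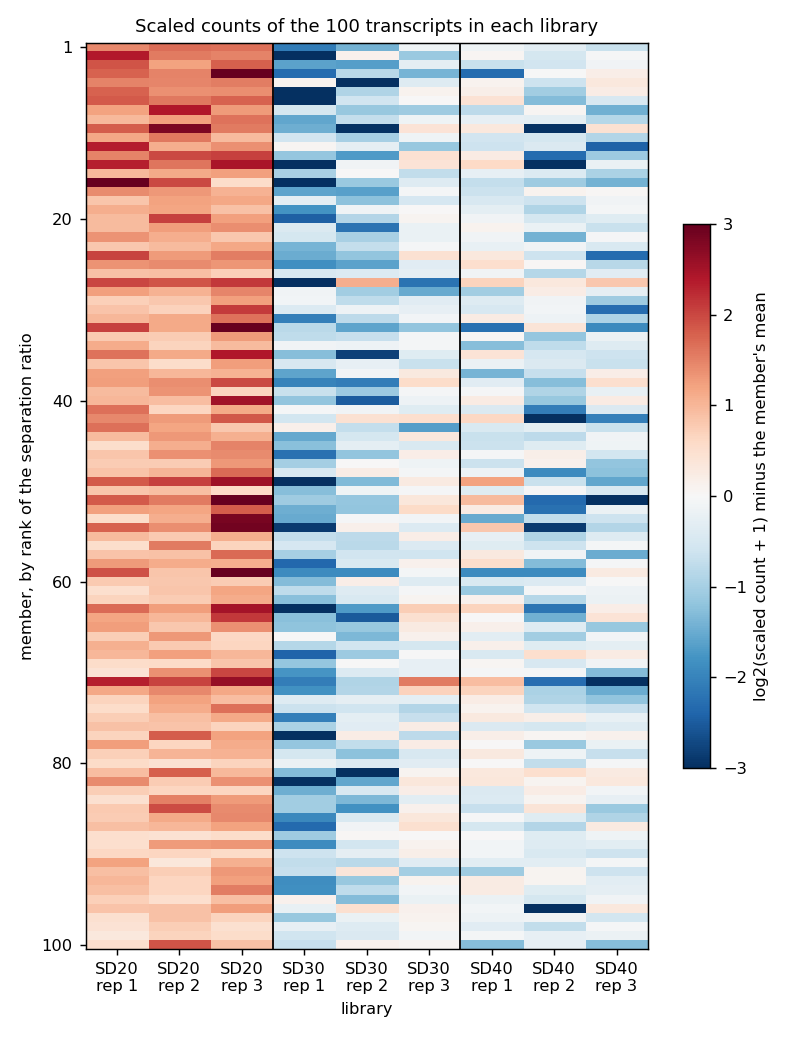
Each row is 1 of the 100 transcripts, ordered by separation ratio from rank 1 at the top, and each column a library; colour gives log2(scaled count + 1) minus the transcript's mean over the 9 libraries, with colours ending 3 log2 units to either side of the mean. The 3 SD20 columns are red in every row because of the choice, while SD30 replicate 1 is the bluest of the control columns and SD30 replicate 3 and SD40 replicate 1 are the palest.

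The size of the difference varied widely among them. On group means of scaled counts + 1, SD20 stood 1.67-fold to 38.2-fold above SD30, with a median of 3.30-fold, and 1.57-fold to 34.5-fold above SD40, with a median of 2.75-fold. Over all 12545 genes the medians were 0.961-fold and 0.955-fold. The SD20 mean was at least 4 times the SD30 mean in 37 of the 100 (4.87% of all genes) and at least 4 times the SD40 mean in 23 (2.32%). Their mean scaled count over the 9 libraries had a median of 27.98, against 37.2 for all 12545 genes, so they were mostly of low to middling abundance. All 100 were also highest in the 3 SD20 libraries in the authors' deposited FPKM (1056 of the 12545 genes, or 8.42%) and in the unscaled estimated counts (8.91% of the genes). Both readings come from the same reads. Size factors were 1.32 to 1.55 in SD20, and the highest elsewhere was 1.34, in SD40 replicate 1. Relative to library totals they were also largest in SD20. The separation in scaled counts therefore largely fixed both outcomes, and they are no support.

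**Figure D2:**
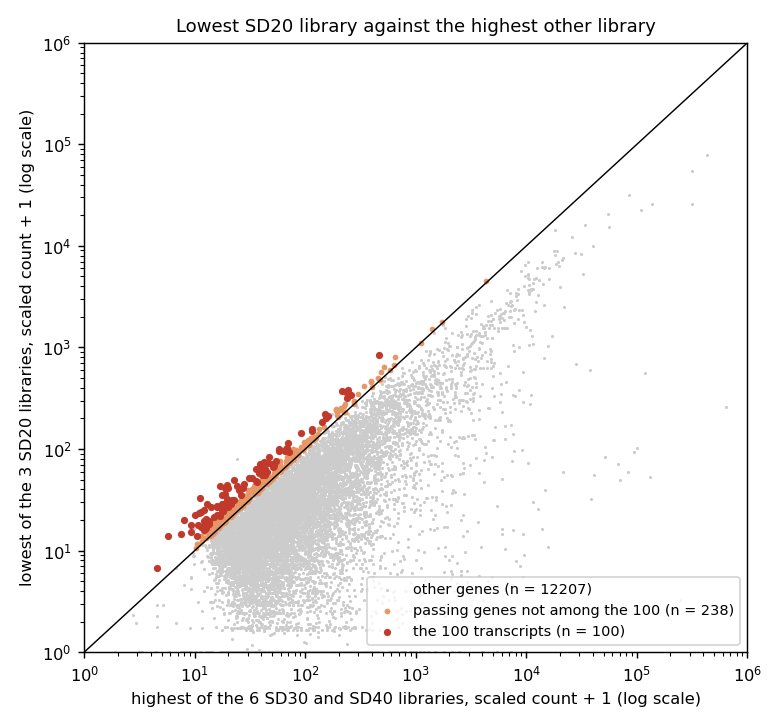
Each point is a gene with a mean scaled count of 10 or more, placed by its highest scaled count + 1 among the 6 SD30 and SD40 libraries (x axis) and its lowest among the 3 SD20 libraries (y axis), both on log scales, with the line of equality. The 100 transcripts lie above the line at ratios of 1.30 to 2.96, the 238 other passing genes lie closer to it, and most of the 12207 remaining genes lie below.

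The clearest gap belonged to AJAP11854, a short gene model of 474 bases. It stood at 32.1, 38.1 and 37.6 scaled counts in the SD20 libraries, against 1.86, 3.54 and 10.2 in SD30 and 10.2, 8.73 and 6.67 in SD40. On scaled counts + 1, its lowest SD20 library was 2.96 times its highest other library, the largest ratio of the 100. In FPKM it averaged 31.4 ± 3.81 in SD20, against 3.15 ± 3.96 in SD30 and 5.85 ± 1.56 in SD40 (mean ± SD over 3 libraries each). AJAP19983, with a model length of 3915 bases, stood at 79.4, 44.0 and 41.8 scaled counts in SD20, against 0, 15.9 and 6.09 in SD30 and 14.9, 9.70 and 14.1 in SD40. One control library had no read of it, and SD20 replicate 1 was well above the other SD20 libraries. AJAP18183 stood at 31.0, 19.1 and 29.0 scaled counts in SD20, against 1.86, 1.77 and 6.09 in SD30 and 4.47, 4.85 and 7.06 in SD40. The counts behind these values were whole and few outside SD20, with 1, 1 and 7 estimated counts in SD30.

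AJAP13994 had few reads outside low salinity. It had 21, 18 and 79 estimated counts in SD20, against 0, 1 and 1 in SD30 and 0, 4 and 4 in SD40. SD20 replicate 3 carried most of its reads. None of the 100 lacked reads in all 6 libraries outside SD20 (0 of 100, and 2 of all 12545 genes), but 21 had no read in at least 1 of them (12.5% of all genes). Of those, 13 had none in SD30 replicate 1 (4.89% of all genes), the library with the smallest size factor.

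AJAP25113, with a model length of 1197 bases, was nearly level among the low-salinity libraries. It stood at 44.0, 43.5 and 45.1 scaled counts in SD20, against 16.3, 0 and 11.2 in SD30 and 16.2, 9.41 and 18.8 in SD40. AJAP23613 stood at 33.3, 27.7 and 31.5 in SD20, against 0, 5.30 and 8.69 in SD30 and 11.9, 2.91 and 5.88 in SD40. AJAP19520 followed the same order, with 27.99, 21.3 and 21.6 in SD20, against 0, 3.59 and 8.26 in SD30 and 8.74, 3.13 and 9.02 in SD40. In each of these 3 a single control library was at 0 while the other control libraries overlapped SD40. AJAP30111, of 4467 bases, stood at 40.5, 93.7 and 42.2 in SD20, against 11.3, 7.11 and 7.53 in SD30 and 9.37, 17.8 and 5.62 in SD40. Here SD20 replicate 2 was the high library, and the SD30 libraries lay within the range of the SD40 libraries.

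**Figure D3:**
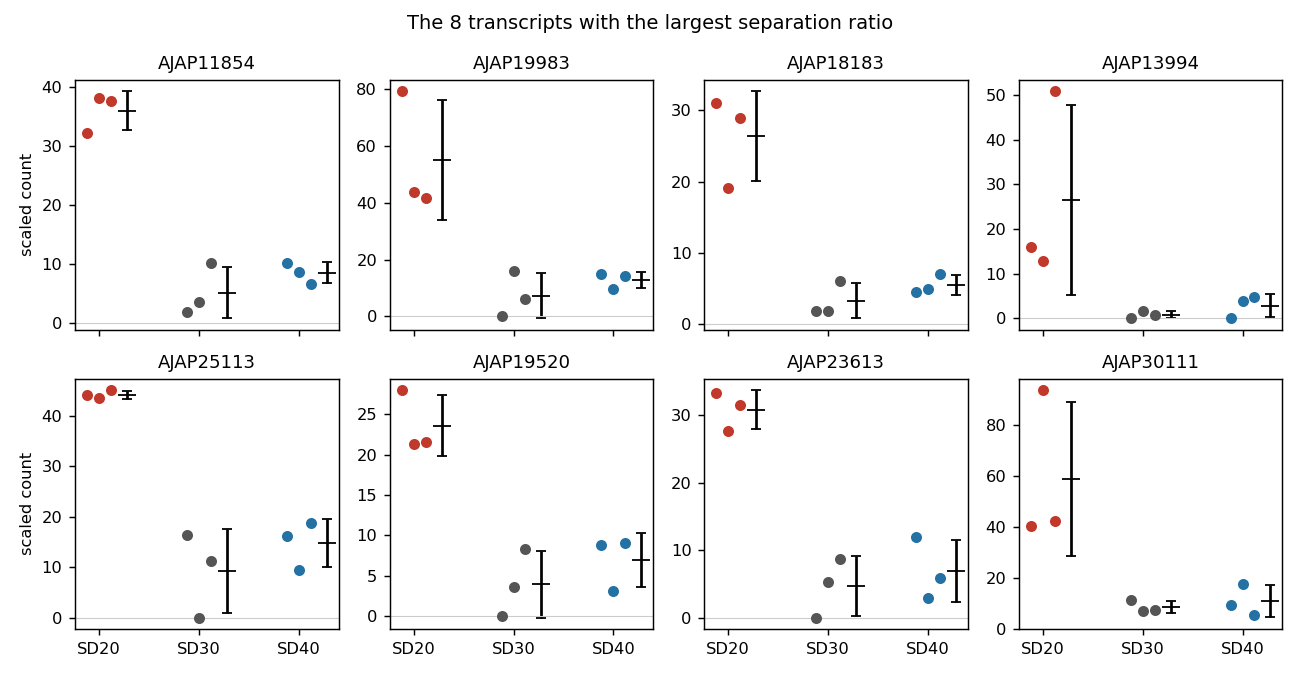
Scaled counts of the 8 transcripts with the largest separation ratio in each library (points), with group mean and SD (bars, n = 3 each), for SD20, SD30 and SD40. In all 8 the SD20 points lie above every other point, while their spread differs from 43.5 to 45.1 in AJAP25113 to 12.8 to 50.8 in AJAP13994.

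Levels per length were compared with the deposited FPKM, which allows different transcripts to be set side by side. The median over the 100 was 17.2 FPKM in SD20, against 2.73 in SD30 and 3.82 in SD40, while over all 12545 genes it was 13.4, 7.65 and 11.0 in the same groups. In SD20, 69 of the 100 averaged 10 FPKM or more and 1 averaged under 1 FPKM, close to the 60.7% and 1.43% of all genes.

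The most abundant per length was AJAP15472, a model of 327 bases, at 316 ± 43.4 FPKM in SD20, against 98.9 ± 71.0 in SD30 and 153 ± 21.9 in SD40 (mean ± SD over 3 libraries each). In scaled counts it stood at 208.7, 266 and 246 in SD20, against 109.9, 124 and 158 in SD30 and 161, 139.6 and 147 in SD40, among the narrowest gaps of the 100. AJAP03571, of 2484 bases, combined a high level with a wide gap. It stood at 845, 1809 and 1021 scaled counts in SD20, against 78.3, 237 and 462 in SD30 and 404, 299.6 and 337 in SD40. In FPKM it averaged 190.5 ± 76.9 in SD20, against 26.9 ± 31.2 in SD30 and 42.5 ± 9.46 in SD40 (mean ± SD over 3 libraries each). All its counts were whole, and it supplied the largest scaled counts of the whole set. AJAP19910 averaged 128 ± 39.6 FPKM in SD20, against 25.7 ± 26.8 in SD30 and 39.5 ± 7.55 in SD40. AJAP11258 averaged 122 ± 62.7 FPKM in SD20, against 27.4 ± 18.8 in SD30 and 22.4 ± 9.14 in SD40. AJAP24624 averaged 106 ± 15.4 FPKM in SD20, against 31.3 ± 26.6 in SD30 and 43.2 ± 8.33 in SD40. AJAP11258 was the one among these 5 with a lower mean in SD40 than in SD30.

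The low-salinity libraries were closer to each other in these transcripts than in most. The highest SD20 library was within 1.5 times the lowest in 48 of the 100, against 22.6% of all 12545 genes, and over 3 times the lowest in 8, against 32.5%. The choice favours this, because a large ratio needs a high lowest library. The coefficient of variation in SD20 had a median of 21.9%, against 54.6% in SD30 and 32.6% in SD40 for the same transcripts. For all genes the medians were 38.4%, 51.1% and 50.3%. The most even transcripts were AJAP06227, at 18.9, 19.1 and 18.7 scaled counts in SD20, AJAP25113, described above, and AJAP17380, at 188, 194 and 184. AJAP06227 stood at 3.73, 12.4 and 7.83 in SD30 and 7.44, 7.76 and 10.6 in SD40. For AJAP17380 the values were 80.1, 102 and 139 in SD30 and 117, 90.0 and 79.3 in SD40.

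A few transcripts were carried by a single low-salinity library. AJAP14809 stood at 446, 38.2 and 13.6 scaled counts in SD20, against 0, 3.55 and 6.55 in SD30 and 5.05, 3.71 and 2.74 in SD40. Its fold of 38.2 over SD30 and 34.5 over SD40, the largest of the 100, rested on SD20 replicate 1. AJAP03859 stood at 33.3, 17.0 and 146 in SD20, against 3.73, 1.77 and 2.61 in SD30 and 0.744, 9.70 and 1.18 in SD40, with SD20 replicate 3 far above the rest. AJAP23004 had 17.3, 8 and 139 estimated counts in SD20, against 0, 0 and 3 in SD30 and 0, 0 and 3 in SD40. It was the 1 transcript of the 100 too sparse for edgeR's filter, and SD20 replicate 3 again held most of its reads. Over the 100, SD20 replicate 3 was the highest low-salinity library in 53, replicate 2 in 27 and replicate 1 in 20, where the shares over all genes were 32.7%, 34.9% and 32.4%.

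Between concentrated and control sea water the transcripts differed little by design. The SD40 mean was above the SD30 mean in 72 of the 100, against 51.2% of all 12545 genes, and the fold of SD40 over SD30 had a median of 1.15 and a range of 0.533 to 2.49. All 3 SD40 libraries lay above all 3 SD30 libraries in 4 of the 100 (4.77% of all genes) and below them in 2 (4.68%). The 4 were AJAP26369, AJAP15498, AJAP00957 and AJAP30127, named after their values were seen. AJAP15498, of 2646 bases, stood at 70.3, 78.7 and 93.3 scaled counts in SD20, against 9.32, 33.6 and 25.2 in SD30 and 51.4, 47.5 and 35.3 in SD40, so that high salinity lay between the others. AJAP30127 stood at 277, 150.3 and 249 in SD20, against 70.8, 67.2 and 93.9 in SD30 and 95.3, 96.0 and 114 in SD40, a narrower step. In all 4, each high-salinity library lay between the control and the low-salinity libraries.

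The library that set the limit was not the same for all. Among the 6 libraries outside SD20, SD30 replicate 3 was the highest in 34 of the 100 and SD40 replicate 1 in 27, against 11.8% and 20.0% of all genes. SD30 replicate 1 was the highest in 5 and the lowest in 48, against 20.7% and 20.9% of all genes. These libraries also differed in the weight of long models. The rank correlation (Spearman) of length with log2(CPM + 1), the TMM-scaled count, relative to the 9-library average, across the 14191 genes tested and given as a description, was 0.146, -0.0234 and 0.201 in SD20, against -0.0878, -0.0978 and -0.0281 in SD30 and 0.207, -0.181 and -0.145 in SD40.

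**Figure D4:**
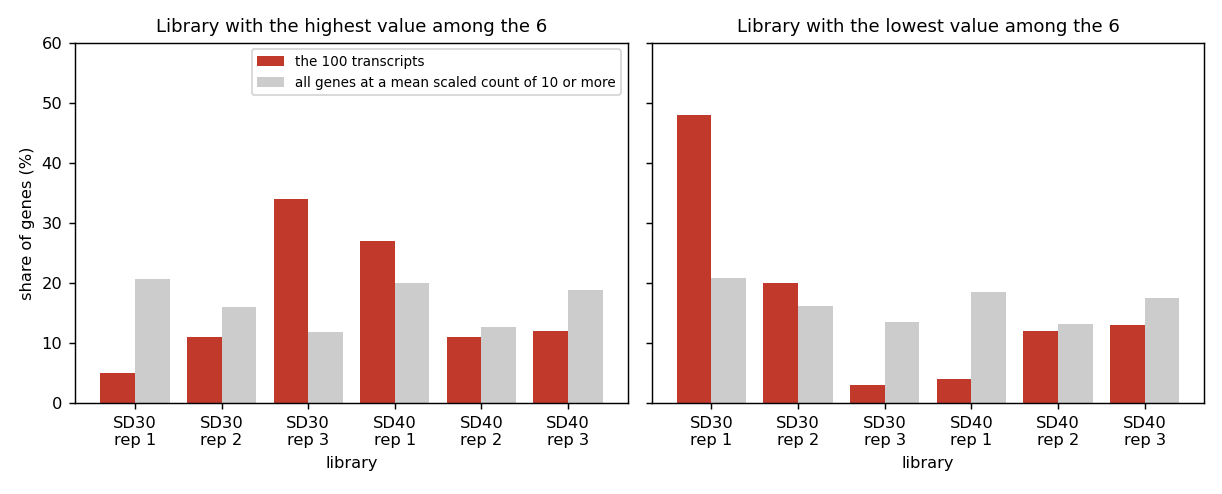
Share of the 100 transcripts (red) and of all 12545 genes at a mean scaled count of 10 or more (grey) in which each of the 6 SD30 and SD40 libraries has the highest (left) or the lowest (right) scaled count of the 6. Among the 100, SD30 replicate 3 and SD40 replicate 1 lead on the left with 34% and 27%, and SD30 replicate 1 leads on the right with 48%.

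Length was a property that the choice did not use. The 100 had a median length of 1462 bases (quartiles 937 and 2137), against 1071 bases (693 and 1632) for all 12545 genes, and 67 of them were longer than that median. Lengths were multiples of 3 in 97 of the 100, against 94% of all 12545 genes, so in both sets they appear to be mainly coding lengths. The longest was AJAP14145, with 6900 bases, at 17.4, 14.9 and 20.0 scaled counts in SD20, against 11.2, 3.54 and 8.69 in SD30 and 8.93, 6.79 and 9.41 in SD40. The shortest, at 327 bases, were AJAP15472 and AJAP16441, the second of which stood at 59.7, 62.4 and 50.2 in SD20, against 13.0, 30.1 and 32.2 in SD30 and 25.3, 32.0 and 23.5 in SD40. The 67 longer transcripts had a median fold of 3.19 over SD30 and 2.74 over SD40, and the other 33 had 3.58 and 2.75. SD20 replicates 1 and 3 and SD40 replicate 1 were the libraries with positive length trends, and the part of these trends in the choice of the 100 was not tested.

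Counts were whole numbers in every library for 58 of the 100, against 43.7% of all 12545 genes. A count that is not whole can come from reads divided between similar gene models, so the other 42 are uncertain where near-identical copies exist. Of the transcripts named so far AJAP11854, AJAP25113, AJAP19520, AJAP30111, AJAP19910, AJAP14809, AJAP17380, AJAP23004 and AJAP26369 are among these 42. Median folds were 2.97 over SD30 and 2.72 over SD40 for the 58, and 4.02 and 2.87 for the 42. Few of the identifiers were close in number. AJAP08669 and AJAP08670 were consecutive, AJAP21690 and AJAP21692 differed by 2 and AJAP20950 and AJAP20953 by 3, and whether such genes are neighbours is not given in the files. The members of the first pair differed in level, at 16.6 ± 8.55 FPKM in SD20, against 1.06 ± 1.41 in SD30 and 2.92 ± 1.68 in SD40 for AJAP08669, and at 7.81 ± 1.97, 1.42 ± 0.422 and 2.11 ± 0.806 FPKM in the same groups for AJAP08670 (mean ± SD over 3 libraries each).

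The fitted differences were then set beside those of all genes. edgeR's quasi-likelihood test was run over 14191 genes with all 9 libraries in a single fit, and 99 of the 100 were among them. The rule used these contrasts, so the fitted values describe the transcripts and are not support for them. None passed the Benjamini-Hochberg adjusted threshold of 0.05 in SD20 against SD30 (0 of 99, and 0% of all genes tested), in SD20 against SD40 (0 of 99, and 0.00705% of all genes, 1 gene lower in SD20), or in SD20 against the mean of both (0 of 99, and 0%). The lowest adjusted p among them was 0.370, 0.740 and 0.421 in these 3 edgeR contrasts. At an unadjusted p under 0.05, 82 were higher in SD20 than in SD30 (5.57% of all genes), 64 higher than in SD40 (2.41%) and 92 higher than in the mean of both (5%). The 82 were 52 when SD20 replicate 3 was left out, 49 without SD30 replicate 1 and 54 without SD30 replicate 2. Over all genes tested, 379 of 14908, 457 of 15878 and 628 of 15833 were then higher, against 791 of 14191 with all 9 libraries. The 64 became 41 without SD20 replicate 2, 32 without SD20 replicate 3 and 40 without SD40 replicate 3. Over all genes tested, the numbers were 369 of 15570, 225 of 14908 and 336 of 15739, against 342 of 14191. DESeq2 gave p-values for 98 of the 100 and called 22 higher than in SD30 (0.615% of its genes), 8 higher than in SD40 (0.193%) and 37 higher than in the mean of both (0.608%). These are the shares of the same contrasts that chose the transcripts, and nothing is read from them.

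The fitted log2 fold changes had a median of 1.81 against SD30 and 1.52 against SD40 over the 99, beside 0.07 and -0.04 over all genes tested. The SE of a single transcript had a median of 0.60 and 0.59. The transcripts with the smallest p against the mean of SD30 and SD40 were AJAP30111, AJAP14809 and AJAP11698. For AJAP30111 edgeR fitted a log2 difference of 2.59 with an SE of 0.47 and an adjusted p of 0.421, higher in 3 of 3 SD20 libraries than in any other. For AJAP14809 the fitted value was 5.36 with an SE of 1.05 (edgeR adjusted p = 0.421), again with SD20 replicate 1 in front. AJAP11698, of 4026 bases and with whole counts, stood at 156, 229 and 337 scaled counts in SD20, against 67.1, 68.9 and 56.5 in SD30 and 113, 69.8 and 64.7 in SD40. The fitted difference was 1.74 with an SE of 0.35 (edgeR adjusted p = 0.421), and SD40 replicate 1 was its nearest library. For AJAP11854, the transcript with the widest gap, it was 2.66 against SD30 (SE 0.66, edgeR adjusted p = 0.370) and 2.00 against SD40 (SE 0.63, edgeR adjusted p = 0.740). For the abundant AJAP03571 it was 2.26 against SD30 (SE 0.64, edgeR adjusted p = 0.370) and 1.81 against SD40 (SE 0.63, edgeR adjusted p = 0.740).

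To look at the same measure in a library that the choice had not used, the rule was applied to 8 libraries and the library left out was then examined. The size factors were those of all 9 libraries, so the library left out still entered the scaling. With SD20 replicate 1 left out, 75 of the 100 genes so chosen had that library above the highest of the 6 SD30 and SD40 libraries, against 11% of all eligible genes. With SD20 replicate 2 left out it was 60 of 100, against 10.5%, and with SD20 replicate 3 left out 70 of 100, against 14.4%. The SD30 and SD40 libraries in these counts are those used for the choice, which favours low values there, and no p is given. The shares of all eligible genes carry no such choice and are not a like comparison, so part of the difference follows from the choice. Leaving out a library of the other groups asks whether it lies below the lowest SD20 library. The SD20 libraries are then those used for the choice, which favours a high lowest value. Here too the shares of all eligible genes carry no such choice, so they are not a like comparison. It did so in 91, 91 and 84 of 100 genes for SD30 replicates 1, 2 and 3, against 36.2%, 33.9% and 27.9% of all eligible genes. For SD40 the numbers were 53, 94 and 82 of 100 for replicates 1, 2 and 3, against 26.8%, 32.9% and 32.3%. SD40 replicate 1 was thus the library that least often took the side of its group. With libraries scaled to their totals the shares over all eligible genes were far higher, at 24%, 23.5% and 31% for the SD20 libraries, 68.7%, 74.3% and 36.5% for SD30 and 36.3%, 46.9% and 44.8% for SD40, while 62 to 97 of the 100 genes chosen had the left-out library on its group's side. With the size factors, each such choice shared between 36 (SD40 replicate 1 left out) and 85 (SD40 replicate 2 left out) genes with the 100.

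**Figure D5:**
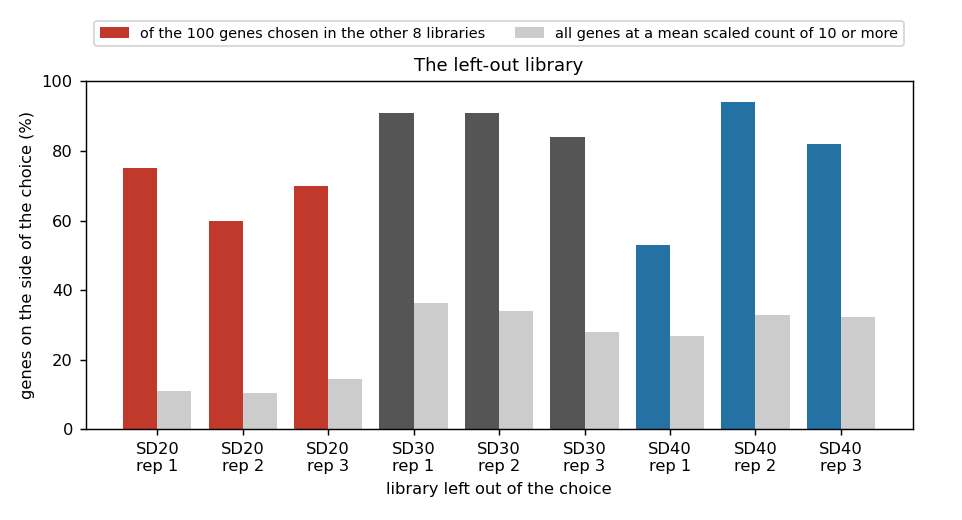
For each library left out of the choice, the coloured bar is the share of the 100 genes chosen in the other 8 libraries in which the left-out library lies on its group's side (SD20 above the highest of the 6 others, SD30 or SD40 below the lowest SD20 library), and the grey bar is the same share over all eligible genes. Coloured bars run from 53% for SD40 replicate 1 to 94% for SD40 replicate 2 and grey bars from 10.5% to 36.2%. Grey bars carry no choice, so they are not a like comparison.

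A separation ratio does not show how many reads lie behind it. Counting intervals (95%, from the estimated counts, for counting error only) were set around the lowest SD20 library and the highest other library. The rule used these same values, and only separated genes can have intervals apart. A high share among the 100 therefore follows from the choice. The intervals did not overlap in 30 of the 100 (0.295% of all 12545 genes), 23 of them at ranks 1 to 50 and 7 at ranks 51 to 100. Among these were AJAP11854, AJAP19983, AJAP25113, AJAP23613, AJAP30111 and AJAP03571. For AJAP03571 the lowest SD20 library had a lower bound of 796 scaled counts, against an upper bound of 503 in the highest other library. For AJAP18183, at rank 3, the bounds were 12.6 and 15.4, and for AJAP13994 they were 7.56 and 12.04, so the intervals overlapped in both, high as they rank. A ratio of 2 or more was reached by 14 of the 100 and a ratio of 1.5 or more by 54.

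The last transcripts taken were AJAP19318, AJAP15472 and AJAP11258, at ratios of 1.30, 1.30 and 1.30, and the next 3, AJAP03014, AJAP08711 and AJAP08005, had 1.29 each. AJAP19318 stood at 54.4, 67.4 and 56.0 scaled counts in SD20, against 33.5, 30.1 and 41.7 in SD30 and 31.3, 23.3 and 38.8 in SD40. Just outside, AJAP08005 stood at 75.6, 94.3 and 102 in SD20, against 7.45, 14.1 and 58.3 in SD30 and 35.7, 13.6 and 32.9 in SD40. Its means differed more than those of AJAP19318, and SD30 replicate 3 alone set its rank. AJAP03014 averaged 43.3 ± 5.92 scaled counts in SD20, against 21.1 ± 10.4 in SD30 and 21.9 ± 8.87 in SD40, and AJAP08711 averaged 378 ± 118 in SD20, against 113 ± 74.7 in SD30 and 151 ± 42.2 in SD40 (mean ± SD over 3 libraries each).

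Applied with the direction turned round or with high salinity as the odd group, the same rule gave other numbers. It found 338 genes higher in SD20 alone, 323 lower in SD20 alone and 112 higher in SD40 alone. A ratio of 2 or more was reached by 14, 7 and 6 of these genes, while the largest ratio was 2.96, 5.05 and 5.21. The differences between these counts were not tested.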

How the data were processed

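Poly(A) RNA was sequenced on a BGISEQ instrument, per the labels' protocols. The authors deposited, for each library, an estimated count per gene model (per the file headers), FPKM (scaled for model length and assigned reads) and the model length. The submitters' processing notes name CASAVA 1.5; the aligner, counter and build were not given in the sources used here. Genes without a line were set to 0. Estimated counts were rounded for edgeR 4.0.16 (filterByExpr, TMM, robust quasi-likelihood test) and DESeq2 1.42.0 in R 4.3.3; limma 3.58.1 was run on log2 FPKM with a pseudocount of 1 or 0.1, keeping genes that reached 1 FPKM in 3 libraries. SE is the log2 fold change over the square root of F. The fit was run on simulated data with planted changes larger than most of those described here. That run does not show how well the fit finds changes of the size seen here. The rule, its members and the tests were chosen with earlier results of these data known. Named transcripts are the 8 widest gaps, the 5 highest in FPKM, the 3 smallest p, those unread outside SD20, the 3 most and 3 least even in SD20, the longest, the shortest, and 3 on either side of the last rank; any others were named after their values were seen. Gene lists and sequences were not used, since the identifiers carry no names. Part of the spread between pools, which the p-values measure, may be technical.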

Additional observations from a re-analysis of the deposited data

Results flagged for a closer look

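In 2 of the 100 transcripts the groups at low and at high salinity moved to opposite sides of the control in every library, and because the choice used these values the difference was not tested. AJAP00593 stood at 128, 94.3 and 115 scaled counts in SD20, against 54.0, 53.0 and 56.5 in SD30 and 23.8, 33.9 and 44.7 in SD40, with SD20 3.22-fold above SD40. AJAP24592 stood at 37.8, 18.4 and 26.4 in SD20, against 11.2, 10.6 and 8.69 in SD30 and 8.19, 1.94 and 8.23 in SD40, with SD20 4.01-fold above SD40. Its SD40 side rests on few reads. SD30 replicate 3, at 8.69, had 10 estimated counts, and SD40 replicate 3, at 8.23, had 7. Across all 12545 genes, 4.68% had every SD40 library below every SD30 library, a larger share than the 2% of the 100. The choice itself set the SD20 side of the pattern.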

How the results depend on the processing

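Which transcripts are taken depended strongly on scaling and on single libraries. With library totals 1054 genes passed and 59 of the 100 were taken, with the authors' FPKM 1329 and 51, with a mean of 50 or more 115 and 26, and with whole counts only 183 and 58. Of the 100, 94 still passed with library totals and 98 with FPKM, so most left the list because other genes had larger ratios. TMM kept 93, a mean of 5 or more 69, and SD30 and SD40 within 1.5-fold and 5-fold 71 and 96. A mean of 50 or more, whole counts only and the 1.5-fold window are stricter filters that change no ratio. All of the 100 that met them were therefore taken (26, 58 and 71), and the rest left only by failing the filter. Leaving out each library in turn, 376 to 720 genes passed and 38 to 85 of the 100 were taken (38 without SD40 replicate 1, 45 without SD20 replicate 2, 55 without SD20 replicate 1, 61 without SD20 replicate 3, 62 without SD30 replicate 3). In all 9 omissions 20 were taken, and in none 4. With library totals, 62 to 97 of the 100 genes chosen in 8 libraries had the left-out library on its group's side, but such choices shared 24 to 55 genes with the 100 in place of 36 to 85 (26 in place of 62 for SD30 replicate 3), and the share over all eligible genes was over 2 times as high for the SD20 libraries and SD30 replicate 2.

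DESeq2 called 348 genes in SD20 against SD30, 77 in SD20 against SD40 and 289 against the mean of both, and the cause was not tested. The 1 gene called by edgeR in SD20 against SD40 was lost (0 genes) with library totals, limma on either scale, a fit of 2 groups, the replicate block and every omission (0 to 0), and kept in number with RLE scaling and without a filter. For SD20 against SD30 these settings called 0 genes, and so did those run for SD20 against the mean of both, where no fit of 2 groups was made.

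The median log2 fold change of the transcripts stayed positive. Against SD30 it was 2.56 with library totals, 2.23 and 2.83 with limma on log2(FPKM + 1) and log2(FPKM + 0.1), and 1.49 to 2.08 over the omissions. Against SD40 it was 1.89, 1.71 and 1.91, and 1.40 to 1.67. The median over all genes was 0.92 and 0.33 with library totals, so this scaling moved all genes upward in SD20. No named transcript changed direction in 812 recomputed fold changes. Of these, 13 passed where edgeR's did not, all from DESeq2, which supplied only a small part of the 812. Over all its genes DESeq2 called 0.615% higher in SD20 than in SD30 and 0.193% higher than in SD40. The choice placed every SD20 library above every other. Neither the positive medians nor the unchanged directions could readily have come out otherwise, and they are no support.

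With the replicate block the medians were 1.86 and 1.54. Same-numbered libraries correlated at -0.113 to 0.203 in their deviations from group means, and not every library was closest to its own number. These values show no clear pairing by number, but with so few libraries they cannot exclude one. Low counts limit the precision of the sparser transcripts.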
